A study of Auxenochlorella pyrenoidosa with 12 samples.

Results

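In the green alga Auxenochlorella pyrenoidosa, 121 assembled transcripts stood above control at the 2 lower doses of potassium peroxymonosulfate and lay near the control level at the highest dose. The deposited table lists 29140 such contigs in FPKM, a level normalised for contig length and for the total of the library, and 11520 of them averaged 2 FPKM or more. The 121 are 1.05% of these. Libraries were first scaled by the median of ratios, which sets each library's typical contig to the same level, and levels were taken as log2(scaled FPKM + 1). A contig was kept if its mean at 0.1 EC50 and at 0.2 EC50 each lay at least 0.5 above the control mean on this log2 scale and the lowest of its 6 low-dose libraries lay above its highest control. The last condition alone held in 10.3% of the 11520 contigs. At 0.5 EC50 its difference from control had to be at most 0.4 of its difference at 0.1 EC50, a limit called the cap here. The 121 were thus chosen by the scaled FPKM of all 4 groups, so the differences from control below describe the contigs chosen and are not evidence for the pattern.

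The alga, also called Chlorella pyrenoidosa, was grown for 12 days at fractions of the EC50, the concentration that gives a median effect. The control group had 0 mg/L and the exposed groups had 1.70 mg/L (0.1 EC50, the lowest dose), 3.40 mg/L (0.2 EC50, the middle dose) and 8.49 mg/L (0.5 EC50, the highest dose) of the oxidant, with 3 libraries of whole-cell RNA in each group. The sources used here give neither the strain nor the sampling day, and they do not say whether replicate libraries are separate cultures. A p-value is therefore a measure of the spread among these libraries only, which may be technical.

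Peroxymonosulfate is a strong oxidant used in water treatment, where it can be activated to sulfate and hydroxyl radicals. Green algae meet oxidants with enzymes such as superoxide dismutase, catalase and ascorbate peroxidase and with the glutathione system, and they repair or replace damaged proteins and pigments. A dose response that goes up at low doses and turns back at a higher one is called non-monotonic in toxicology. No gene names come with the contigs, so the 121 are not sorted by function here, and 4 are named by identifier as examples.

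Before the values, 2 properties of the libraries bear on this set. The factors from the median of ratios were 0.959 to 1.04 in the controls, 0.887 to 0.947 for the lowest dose, 0.975 to 1.05 for the middle dose and 1.07 to 1.12 for the highest, so scaling raised the values of the lowest dose and lowered those of the highest. With FPKM as deposited, 40 contigs met the rule, of which 37 were among the 121. The second property lies in low values, between 0.01 and 1 FPKM, whose ratios between a pair of libraries pile up at shared steps. In pairs drawn from 8 of the libraries the fullest bin of ratios held 1.80% to 5.41% of contigs. In pairs of 1 of these with 1 of the 4 others it held 1.17% to 2.45%, ranges that overlap. The 4 others are control replicate 2, replicate 2 of the middle dose and replicates 2 and 3 of the lowest dose, and results are given below with and without them. Depth is unknown, since the table holds no counts.

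TRINITY_DN4121_c0_g1_i1_4 and TRINITY_DN2888_c0_g1_i2_3 had the highest values when contigs with at least 5 FPKM in both low-dose groups were ranked by the smaller of their 2 low-dose differences. The first stood at 5.16, 4.75 and 4.87 scaled FPKM in the controls, then at 13.2, 11.6 and 10.6 at the lowest dose, 14.6, 12.3 and 10.7 at the middle dose and 7.23, 5.58 and 5.80 at the highest dose. All 6 low-dose libraries were over 10 scaled FPKM, and the 3 libraries at 0.5 EC50 lay slightly above every control. Its means were 4.93 ± 0.213, 11.8 ± 1.29, 12.5 ± 1.96 and 6.21 ± 0.896 scaled FPKM in the same order (SD, n = 3), and its log2 differences from control were 1.11, 1.18 and 0.28. TRINITY_DN4121_c0_g1_i1_4 also had the widest gap between the lowest low-dose library and the highest control, 0.92 on the log2 scale, against a median gap of 0.30 over the 121 contigs.

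TRINITY_DN2888_c0_g1_i2_3 stood at 30.3, 26.2 and 20.8 scaled FPKM in the controls, then at 69.5, 100.1 and 84.7 at the lowest dose, 47.7, 73.3 and 47.1 at the middle dose and 37.3, 43.6 and 43.0 at the highest dose. Here the level stepped down from the lowest dose to the highest, with 0.5 EC50 still above every control. Its log2 differences from control were 1.68, 1.08 and 0.67, so that 0.5 EC50 kept 39.98% of the difference at 0.1 EC50, just under the cap. It had the highest difference at 0.5 EC50 of the 121 contigs.

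TRINITY_DN4515_c0_g2_i1_4 and TRINITY_DN1256_c0_g1_i6_4 had the lowest differences at 0.5 EC50. The first stood at 5.41, 6.90 and 6.05 scaled FPKM in the controls, then at 11.1, 15.0 and 13.6 at the lowest dose, 13.1, 12.5 and 9.48 at the middle dose and 5.93, 3.99 and 3.69 at the highest dose. One library at 0.5 EC50 lay inside the control range and the other two lay below it, for a log2 difference of -0.38. TRINITY_DN1256_c0_g1_i6_4 stood at 60.4, 59.3 and 59.9 scaled FPKM in the controls, then at 83.3, 108 and 104 at the lowest dose, 94.0, 98.6 and 85.6 at the middle dose and 51.3, 46.7 and 49.8 at the highest dose. It was the 1 contig of the 121 with all 3 libraries at 0.5 EC50 below every control, where 18.1% of all 11520 contigs were, and its log2 difference was -0.28. In this contig the level was above control at the middle dose and below control at the highest.

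**Figure D1:**
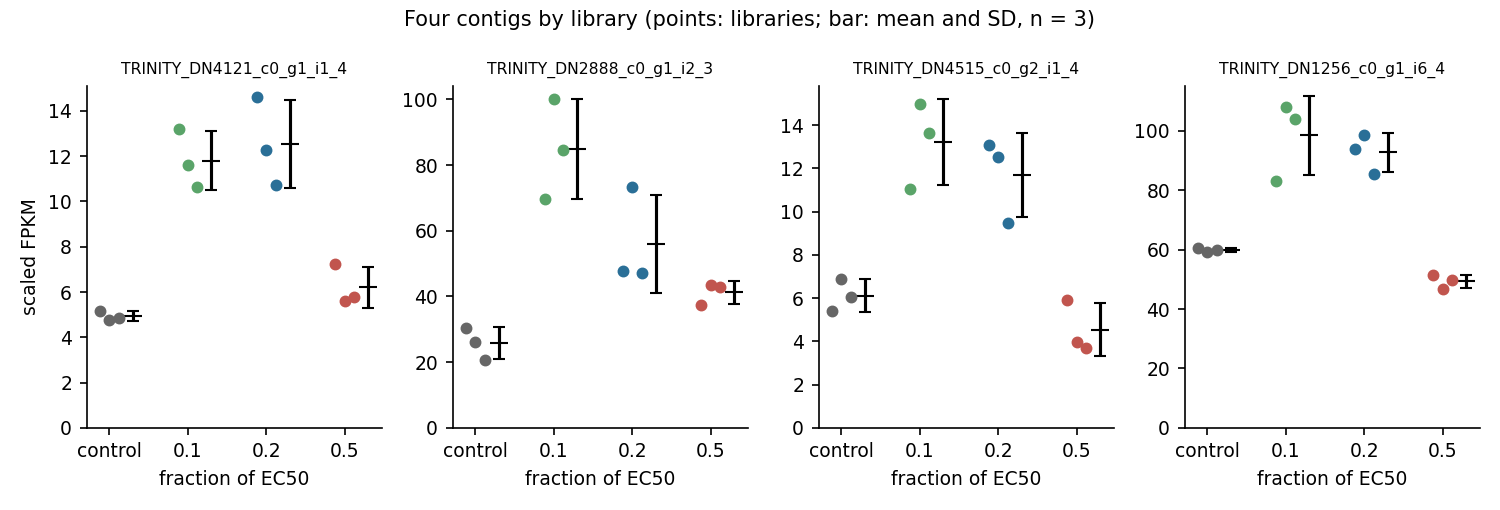
Scaled FPKM (linear axis from 0) of the 4 named contigs in each library against the fraction of EC50. Points are libraries and the bar beside them is the mean with its SD (n = 3); in each panel the 6 low-dose points lie above the 3 controls, and at 0.5 EC50 TRINITY_DN1256_c0_g1_i6_4 lies below its controls.

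The set covers a wide range of abundance. The mean FPKM of its contigs ran from 2.37 to 2380.1 with a median of 17.9, against a median of 7.56 over all 11520 contigs. Of the 121, 84 averaged 10 FPKM or more, and 0 were listed at 0 in any library. The most abundant stood at 1957, 1937 and 1706 scaled FPKM in the controls, then at 2876, 3075 and 2852 at the lowest dose, 2900.3, 2910.5 and 2207 at the middle dose and 2175.5, 2059 and 2000.1 at the highest dose. Replicate 3 of the middle dose lay well below the other five low-dose libraries and close to replicate 1 of the highest dose, and all 3 libraries of the highest dose were above the controls. The second most abundant stood at 373, 354 and 337 scaled FPKM in the controls, then at 525, 518 and 526 at the lowest dose, 539, 496 and 472 at the middle dose and 406, 389 and 355 at the highest dose, with 0.5 EC50 overlapping the controls. Together the 121 contigs held 0.925% ± 0.0426 of the summed deposited FPKM in the controls, 1.41% ± 0.0255 for the lowest dose, 1.45% ± 0.109 for the middle dose and 1.09% ± 0.0461 for the highest (SD, n = 3). Without the most abundant contig the share was 0.570% ± 0.0161 in the controls, 0.928% ± 0.0447 for the middle dose and 0.666% ± 0.0153 for the highest.

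The low-dose differences were modest in most contigs. The median log2 difference from control was 0.70 at 0.1 EC50 (range 0.50 to 1.82) and 0.66 at 0.2 EC50 (range 0.50 to 1.18), where all 11520 contigs had medians of 0.02 and -0.02. A difference of at least 1, a doubling of scaled FPKM + 1, was reached by 12 contigs at 0.1 EC50, by 6 at 0.2 EC50 and by 4 at both. The largest difference at 0.1 EC50 belonged to a contig of low level, at 1.24, 1.28 and 0.741 scaled FPKM in the controls, then at 5.57, 6.40 and 7.06 at the lowest dose, 3.66, 2.12 and 3.53 at the middle dose and 1.56, 1.16 and 1.04 at the highest dose. In that contig the lowest dose stood clear of the middle dose, and 0.5 EC50 lay inside or near the control range. By level, the median differences at 0.1, 0.2 and 0.5 EC50 were 0.69, 0.72 and 0.18 for the 37 contigs under 10 FPKM, 0.70, 0.65 and 0.15 for the 76 contigs from 10 to under 100 FPKM and 0.77, 0.57 and 0.13 for the 8 contigs of at least 100 FPKM.

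**Figure D2:**
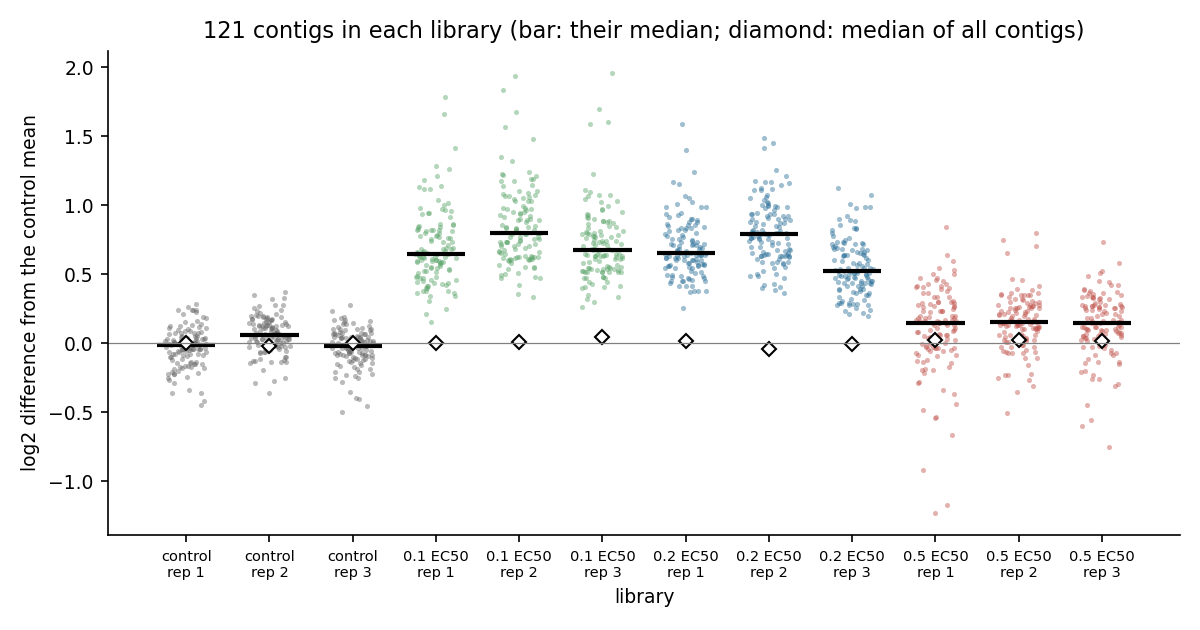
Log2 difference of each of the 121 contigs from its own control mean (vertical axis) in each of the 12 libraries (horizontal axis), with the median of the 121 as a bar and the median of all 11520 contigs as a diamond. The bars lie between 0.53 and 0.80 in the 6 low-dose libraries and at about 0.15 in each library at 0.5 EC50, while the diamonds stay near 0.

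At 0.5 EC50 the median log2 difference of the 121 contigs from control was 0.16, against 0.02 over all 11520 contigs, and it was 0.15 in each of the 3 libraries. In 102 contigs the mean at 0.5 EC50 was above the control mean and in 19 it was below. All 3 libraries at 0.5 EC50 lay above every control in 36 contigs, while in 84 the groups overlapped; 18.3% of all 11520 contigs had 0.5 EC50 above control without overlap. Replicate 1 at 0.5 EC50 spread most, from -1.23 to 0.85 over the 121 contigs, against -0.51 to 0.80 in replicate 2 and -0.75 to 0.73 in replicate 3. The rule also favours contigs with low controls. In contigs chosen without it, control replicate 2 lay a median of 0.17 above the other controls, and control replicates 1 and 3 lay 0.02 and 0.00 above them. The left-out control was above the mean of the others in 77.2% of contigs for replicate 2 and in 58.1% and 53.1% for replicates 1 and 3. The offset of 0.16 at 0.5 EC50 comes from libraries that took part in the choice, so it is not measured like these left-out controls. Left-out libraries at 0.5 EC50 lay a median of 0.26, 0.20 and 0.21 above the control mean (replicates 1, 2 and 3). They were set against controls that all took part in the choice, and each left-out control was read on another set of contigs. These readings are therefore not measured alike either. The part of the choice in the offset of 0.16 was not tested.

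The cap divides a continuum. In all, 467 contigs met the low-dose limits whatever they did at 0.5 EC50, and the 121 are the 25.9% of them at or under the cap. Over the 467 the difference at 0.5 EC50 was a median of 61.1% of that at 0.1 EC50, and 88 contigs were higher relative to control at 0.5 than at 0.1 EC50. The share was at or below 0 in 19 contigs, up to 0.2 in a further 36, up to 0.4 in 66, up to 0.6 in 105 and up to 0.8 in 75, with no gap at 0.4. The members nearest the cap had 39.9996%, 39.98% and 39.8% of the difference at 0.1 EC50, and the nearest contigs outside it had 40.07%, 40.3% and 40.4%. At the size limit the smaller low-dose difference was 0.5002, 0.5003 and 0.5005 just inside and 0.4989, 0.498 and 0.494 just outside. A further 43 contigs failed only because a low-dose library and a control overlapped, and 49 only because their mean was under 2 FPKM.

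**Figure D3:**
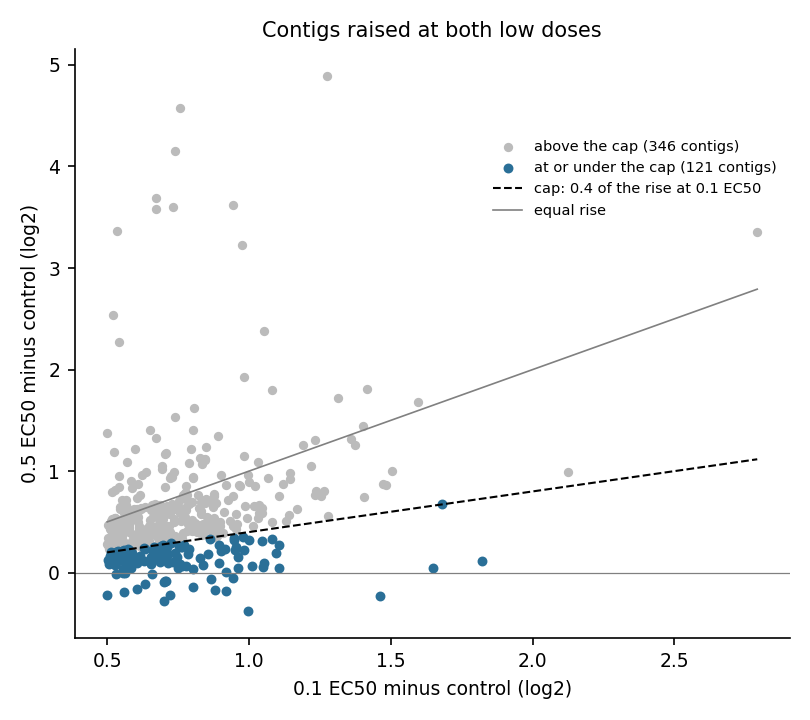
Log2 difference from control at 0.5 EC50 (vertical axis) against that at 0.1 EC50 (horizontal axis) for the 467 contigs raised at both low doses, with the 121 at or under the cap in blue. The points run across the dashed cap line without a gap, and 19 blue points lie below 0.

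Because every library took part in the choice, the rule was also applied to 11 libraries at a time and the left-out library was then read on the contigs chosen without it. The left-out library had no part in the choice, but the libraries it was set against did. Libraries of 0.1 and 0.2 EC50 with the same replicate number also deviated together from their group means (correlations across contigs of 0.196, 0.239 and 0.293). A left-out low-dose library therefore had a related library among those that chose, and its shares are not fully independent of the choice. Over all 18 same-number pairs of libraries from different groups the correlations ran from -0.237 to 0.293, and 8 were over 0.1. Among these were control and 0.1 EC50 replicate 1 (0.242) and 0.1 and 0.5 EC50 replicate 3 (0.180). The limit thus also holds for some left-out controls and libraries at 0.5 EC50. Leaving out a library at 0.1 EC50 gave 114 to 139 contigs, and the left-out library lay above the highest control in 91.3%, 94.7% and 94.2% of them (replicates 1, 2 and 3), against 32.4% to 34.2% of all contigs. For 0.2 EC50 the shares were 96.5%, 85.5% and 86.0%, against 31.4% to 33.0%. Left-out controls lay below all 6 low-dose libraries in 88.0%, 81.2% and 92.0% of the contigs chosen without them, against 20.04% to 22.3% of all contigs. Each low-dose library thus stood above every control in most contigs that it had no part in choosing.

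The size of the difference shrank in most left-out libraries. The left-out median was 0.62, 0.77 and 0.64 for replicates 1, 2 and 3 at 0.1 EC50, where the remaining libraries of that dose had 0.73, 0.67 and 0.72. For 0.2 EC50 it was 0.66, 0.73 and 0.47, against 0.67, 0.65 and 0.70. The second library of each low dose thus read higher than the libraries that chose the contigs, and the others read lower.

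The libraries of the highest dose were read against the cap, a different measure from lying above every control. A left-out library at 0.5 EC50 lay under the cap in 57.0%, 63.7% and 63.3% of the contigs chosen without it, against 47.8% to 49.7% of all contigs, whose differences centre on 0. Among contigs raised at both low doses but above the cap in the remaining libraries, the share was 21.9%, 9.76% and 19.9%. The median left-out difference from control was 0.26, 0.20 and 0.21, above the 0.15, 0.14 and 0.15 of the libraries that chose the contigs. Even so, the left-out library lay below both low-dose means in 91.7%, 99.2% and 96.7% of the contigs chosen, against 40.2%, 38.8% and 40.1% of all contigs. Among the raised contigs above the cap the shares were 60.8%, 66.0% and 73.0%. The low-dose means used here had themselves been chosen to be high. The left-out library thus lay under the low-dose means in most of the contigs chosen without it, while many of them were above the cap in it.

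**Figure D4:**
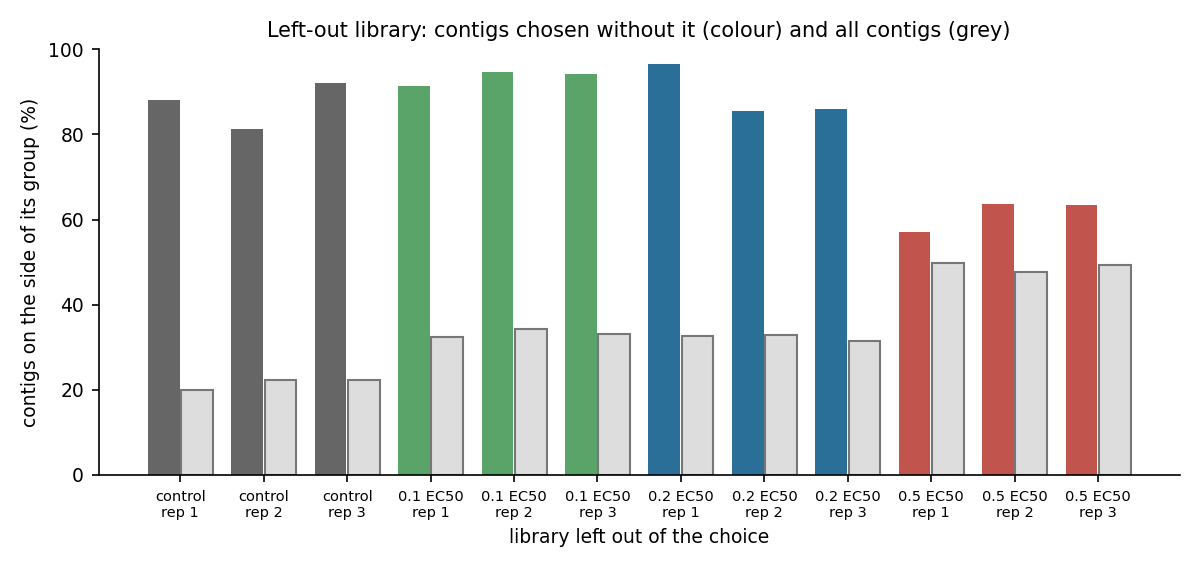
Share of contigs (vertical axis, from 0 to 100%) on the side of its group in each left-out library (horizontal axis), for contigs chosen without that library (coloured by group) and for all contigs (grey). The sides are above every control for 0.1 and 0.2 EC50, below every low-dose library for control, and under the cap for 0.5 EC50; the coloured bars reach 81.2% to 96.5% in the first 9 libraries and 57.0% to 63.7% at 0.5 EC50.

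All contigs were also fitted together with limma on the log2(scaled FPKM + 1) values, with Benjamini-Hochberg adjustment over 16732 contigs. Against control, 103 of the 121 were called higher at 0.1 EC50 (4.57% of all contigs were) and 95 at 0.2 EC50 (5.6% of all), contrasts that the rule used. At 0.5 EC50 against control limma called 0 of them, with 14 at an unadjusted p under 0.05, where 3.9% of all contigs were called higher, 4.02% lower and 25.4% had such an unadjusted p. Compared directly, 78 were called lower at 0.5 than at 0.1 EC50 (5.77% of all contigs) and 49 lower than at 0.2 EC50 (2.13% of all), and the rule bears on both. All 3 libraries at 0.5 EC50 lay below all 6 low-dose libraries in 93 contigs, as in 9.31% of all.

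These counts rest on several libraries. In the 8 libraries that share low-value steps, 0.1 EC50 has a single library whose spread is taken from the rest, so counts are not given there. Far fewer of the 121 were called than in all 12 libraries, both at the low doses against control and at 0.5 EC50 against the low doses. Far fewer of all contigs were called in these comparisons too. In these 8 libraries the median differences of the 121 were 0.70, 0.62 and 0.17, close to the values from all 12. In 121 of 121 both low-dose means lay above control and above 0.5 EC50. The 8 libraries took part in choosing the 121, so both readings were largely fixed in advance. The rule itself, applied to the 8 libraries, chose 224 contigs, 76 of them among the 121. The count at 0.1 EC50 was 68 without 0.1 EC50 replicate 2, and that at 0.2 EC50 was 63 without control replicate 3. Between 0.5 and 0.1 EC50 it was 40 without 0.1 EC50 replicate 2 and 47 without 0.5 EC50 replicate 2 or 3. Between 0.5 and 0.2 EC50 it was 21 and 25 without 0.2 EC50 replicates 1 and 2, and 22 without 0.5 EC50 replicate 2 or 3. In each of these settings calls over all contigs fell too. On deposited FPKM the median differences were 0.59, 0.68 and 0.27, where all 11520 contigs had -0.08, -0.00 and 0.14. All 121 had 0.5 EC50 below both low-dose means there, which the choice largely fixed. Of the 121, 75 then exceeded the cap. At 0.5 EC50 limma called 10 of the 121 higher than control, where it called 1186 of all 16732 contigs higher.

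The rule set each low dose against control and not directly against the other, but its cap used the difference at 0.1 EC50 alone. A contig higher at 0.1 than at 0.2 EC50 thus met the cap more easily. Over the 467 contigs taken whatever they did at 0.5 EC50, the median differences were 0.70 at 0.1 EC50 and 0.76 at 0.2 EC50. Over the 121 they were 0.70 and 0.66, so the comparison below is not free of the choice. Between 0.2 and 0.1 EC50 limma called 0 of the 121, as it called 0% of all contigs, and 12 had an unadjusted p under 0.05 (9.92%, against 11.6% of all contigs). The smallest adjusted p among the 121 was 0.224. The median log2 difference of 0.2 from 0.1 EC50 was -0.04, with 75 contigs lower at 0.2 EC50 and 46 higher, while on deposited FPKM it was 0.09, where all contigs tested had 0.10. The libraries of the 2 doses overlapped in 109 contigs, lay apart with 0.2 EC50 lower in 8 (7.58% of all contigs) and with 0.2 EC50 higher in 4 (8.81% of all). The contig with the largest difference in favour of 0.2 EC50, 0.34, stood at 5.29, 4.90 and 6.27 scaled FPKM in the controls, then at 7.64, 8.91 and 9.05 at the lowest dose, 11.1, 12.4 and 9.76 at the middle dose and 5.32, 6.83 and 7.67 at the highest dose. No difference between the middle and the lowest dose was detectable at 3 libraries a group, which does not show that the doses act alike.

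Libraries of 1 dose were not equally high. The highest of the 12 values of a contig was in 0.1 EC50 replicate 2 for 41 contigs and in 0.2 EC50 replicate 2 for 39, against 18 and 7 for replicates 1 and 3 of the middle dose and 12 and 4 for replicates 1 and 3 of the lowest. The first 2 libraries also had the highest median differences, 0.80 each, and 0.2 EC50 replicate 3 the lowest, 0.53. Both high libraries are among the 3 low-dose libraries with other low-value steps. The remaining one of these, 0.1 EC50 replicate 3, had a median of 0.67, and replicate 1 of either dose had 0.65. Their part in the result was not tested. The library with the highest value was not counted over all contigs. The counts of 41 and 39 therefore do not show whether this is particular to the set. The rule also favours the low-dose libraries as the place of the highest value. Within groups the median SD of the log2 values was 0.13 in the controls and 0.16, 0.19 and 0.15 from the lowest to the highest dose.

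What the contigs share beyond the rule could be read from their names. The names end in a digit, 1 to 4, which no source used here explains. It was 4 in 52 of the 121 (43.0%, against 32.1% of all 11520 contigs), 2 in 32 (26.4%, against 18.1%), 1 in 19 (15.7%, against 23.6%) and 3 in 18 (14.9%, against 26.3%). The 346 raised contigs above the cap were split in a like way, with 45.4%, 22.3%, 20.5% and 11.8% for 4, 2, 1 and 3. Among all contigs with the same endings, the median differences at 0.2 EC50 were 0.06, 0.03, -0.06 and -0.13, so the classes also differed in this measure across the whole table. No test of the split was made.

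**Figure D5:**
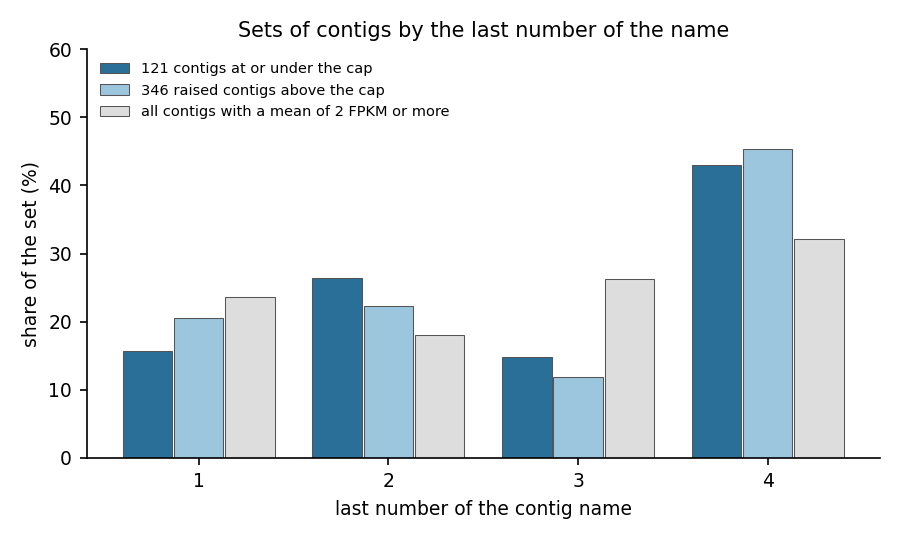
Share of each set (vertical axis, %) by the final digit of the name (horizontal axis) for the 121 contigs, the 346 raised contigs above the cap and all 11520 contigs. Names ending in 4 and 2 take larger shares of both raised sets, and names ending in 1 and 3 smaller ones, than of all contigs.

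The 121 contigs carried 120 different Trinity gene names, the part of the identifier that groups contigs assembled as variants of 1 gene. In 70 of them (57.9%, against 52.6% of all 11520 contigs) the table held another contig of that gene name, which can share reads with the member. Of these other contigs 53 averaged 2 FPKM or more, a set that leaves out members by construction. Their median differences were 0.04, -0.06 and 0.03 at 0.1, 0.2 and 0.5 EC50, and 19 of them (35.8%, against 37.1% of all contigs) stood above control at both low doses. When FPKM was summed over each of the 69 gene names concerned, the median differences were 0.51, 0.50 and 0.09 and 22 sums met the rule, with the member holding a median of 84.6% of the sum. The gene name with 2 members had 1 at 35.8, 28.7 and 35.04 scaled FPKM in the controls and 55.9, 76.7 and 57.3 at 0.1 EC50, and the other at 8.09, 6.70 and 7.76 and at 14.01, 15.8 and 15.4, and they count as 1 source.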

How the data were processed

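Per the labels' protocols, libraries were made from total RNA with Illumina TruSeq RNA chemistry. The authors deposited 1 table of FPKM for 29140 contigs in 12 libraries. The unit is known from the table's name, and the sources used here do not give the assembler version, aligner, estimator or filters. Depth is unknown, so no counting interval is given.

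Samples were grouped by their titles. Factors were median ratios to row geometric means over 10427 contigs above 1 FPKM in all 12 libraries. limma 3.58.1 in R 4.3.3 fitted log2(scaled FPKM + 1) with a prior trend for the 16732 contigs that averaged 1 FPKM or more, 4 groups in 1 fit with 8 residual degrees of freedom. Tests were two-sided, and an adjusted p under 0.05 was a call. Differences on this scale understate the change of low contigs. Figures used matplotlib 3.10.9 in Python 3.11.15. The procedure was tested on simulated data.

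The contigs and the named examples were chosen with earlier results of these data known. The naming rule took the 2 contigs with the largest smaller low-dose difference (at least 5 FPKM in both low-dose groups) and the 2 with the lowest difference at 0.5 EC50. Others are described without identifier. Low-value steps were read from values of 0.01 to 1 FPKM, as the share of contigs in the fullest bin of 0.005 among log2 ratios within 0.5. The 4 libraries set apart were those of an earlier analysis of these data. Replicate numbers paired the libraries of 0.1 and 0.2 EC50 by their deviations from the group means (correlations of 0.196, 0.239 and 0.293 across contigs). With the replicate block limma still called 0 of the 121 between these doses.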

Additional observations from a re-analysis of the deposited data

How the results depend on the processing

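The number of contigs chosen was 40 with FPKM as deposited and 224 in the 8 libraries that share low-value steps, and it lay between 113 and 157 when 1 library was left out. A pseudocount of 0.1 gave 143, a mean of at least 5 FPKM 110 and no filter 170. Left-out low-dose libraries lay above every control in 91.1% of choices, which was 83.6% with no filter. Left-out controls lay below the low doses in 86.5%, which was 78.4% with no filter. Left-out libraries at 0.5 EC50 lay under the cap in 61.4%, which was 54.7% with FPKM as deposited. Of the 121 contigs, limma's calls against control were 17 (0.1 EC50) and 32 (0.2 EC50) in those 8 libraries and 45 at 0.1 EC50 with the steps as a batch term, a term that fits control replicate 2 exactly. Calls of 0.5 EC50 against control were 10 with FPKM as deposited and 2 each with quantile normalization, a mean of at least 5 FPKM and the replicate block. All were higher. Over all contigs 1186, 608, 490 and 973 were called higher in these settings, of 16732 tested, or of 7377 at a mean of at least 5 FPKM. Calls below 0.1 EC50 were 38 with FPKM as deposited, 3 in those 8 libraries and 26 with the batch term. Calls of 0.5 EC50 below 0.2 EC50 were 31 with the batch term, and 204 over all contigs, against 357 in the main fit. With 1 library left out, calls lay between 68 and 105 (0.1 EC50 against control), 63 and 97 (0.2 EC50), 0 and 2 (0.5 EC50), 40 and 84 (0.5 below 0.1 EC50) and 21 and 52 (0.5 below 0.2 EC50). Calls over all contigs varied as well, between 387 and 807 for 0.1 EC50 higher than control. With the batch term they were 219 for 0.1 EC50 higher than control, against 764 in the main fit. Calls over all contigs for 0.5 below 0.1 EC50 were 411 with FPKM as deposited and 256 with the batch term, against 965. In the 8 libraries that share low-value steps, far fewer of all contigs were called in these comparisons too. The cause of these shifts was not tested. The block is a pairing by number that the deviations show for 0.1 and 0.2 EC50 (6 of 6 libraries correlated best with their own number) and not for the other comparisons, where 0 to 4 of 6 did. It changed no other count by over 1.5 times. The differences of the 4 named contigs from control kept their sign in all 240 alternative values, of which 11 lost and 4 gained a call. Unknown depth limits what can be said of low contigs.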
